A study of Homo sapiens with 22 samples.

Results

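The 10 genes described here encode interleukins and related cytokine-pathway proteins: IL1A, IL1B, IL1RN and IL33 of the IL-1 family, IL6, IL11 and LIF of the IL-6 family, IL24 of the IL-10 family, and TSLP with its receptor chain CRLF2. They are 10 of the 35237 genes in the count table, matched by symbol. They were chosen by their measured levels in these libraries, since the selection names a rise of IL24 in the second treatment stage of SK-N-AS and a rise of CRLF2 in GIMEN. Comparisons of second-stage SK-N-AS and of treated GIMEN with untreated cells are therefore given as descriptions without a test.

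The samples were bulk RNA of GIMEN and SK-N-AS, neuroblastoma lines long kept in culture and labelled as mesenchymal (MES). The cells were compared before and after PP121, an inhibitor of tyrosine kinases and phosphoinositide kinases, and bufalin, a cardiac glycoside that inhibits the sodium pump. The 4 SK-N-AS groups had 4 libraries each. Untreated cells were kept in DMEM with 10% serum. S1D4 cells (stage 1) had 5 µM PP121 in DMEM with 1% serum for 4 days. S2D4 and S2D30 cells (stage 2) started as S1D4 cells and then had 5 µM PP121 and 100 nM bufalin in Neurobasal with B27 for 4 or 30 days. The GIMEN groups had 3 libraries each: untreated cells in RPMI with 10% serum, and D30 cells with 2.5 µM PP121 and 10 nM bufalin in RPMI with 1% serum for 30 days. Each treated group also changed medium or serum, so drug, medium and serum cannot be told apart, and cell line, dose and medium cannot be told apart between the lines. Nothing in the labels says that replicates came from separate cultures, so p-values measure only the spread between these samples, which may be technical.

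IL-1 family cytokines signal through paired receptor chains and the adaptor MYD88 to NF-kappa-B and AP-1, and IL1RN occupies the IL-1 receptor without signalling. IL-6 family cytokines share the receptor chain IL6ST (gp130) and signal through JAK kinases and STAT3, as IL-10 family cytokines do through their own receptor pairs. TSLP binds a pair made of CRLF2 and the IL-7 receptor chain IL7R. All are known mainly from inflammation, barrier tissues and leukocytes, and LIF is also known as a signal to neurons of the sympathetic lineage.

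Total counts were 16456484 to 37506800 per library. A level is given as CPM, the count scaled to library size (TMM factors over all 22 libraries), and 3 counts in a library corresponded to 0.0742 to 0.193 CPM. A group with at most 3 counts in each library is called at the floor. RNA was measured in bulk, so fewer expressing cells and less RNA per cell cannot be told apart. SK-N-AS expressed all 9 mesenchymal marker genes but also all 8 adrenergic ones, and in untreated cells the summed levels were 941 to 1473 CPM and 1541 to 1783 CPM. In S2D30 the sums were 3300 to 3993 CPM and 210.1 to 255.3 CPM. VIM made up most of the mesenchymal sum in both groups, at 937 ± 243 CPM and 2862 ± 316 CPM (SD, n = 4). Of the 9 mesenchymal genes, 7 were higher in S2D30 than in untreated cells (33.8% of all genes). The other 2, FN1 and TWIST1, were lower (36.5%), with FN1 going from 60.3 ± 18.4 to 1.89 ± 0.42 CPM. In untreated GIMEN the mesenchymal sum was 37700 to 39290 CPM, and the adrenergic genes PHOX2A and TH had no counts. The summed level of 13 leukocyte markers moved opposite to most of the cytokines in SK-N-AS, from 160.9 to 208.8 CPM in untreated cells to 4.914 to 8.037 CPM in S2D30. PTPRC made up most of that sum, at 177 ± 20.9 CPM (SD, n = 4) and 0.85 ± 0.36 CPM, while CD3D, CD3E and MS4A1 were at 0 in both groups. Of the 4 markers fitted, 2 were lower in S2D30, PTPRC and CD4 (36.5% of all genes), and 2 were higher (33.8%). The higher ones were CSF1R, from 0.26 ± 0.17 to 1.69 ± 0.39 CPM, and CD14, from 1.34 ± 0.45 to 3.09 ± 1.0 CPM. The part of these marker changes in the cytokine results was not tested.

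One library stood apart. S2D4 replicate 4 correlated at 0.967 to 0.969 with the other S2D4 libraries, which correlated at 0.99 with each other (Pearson, across genes, log2 CPM). Its correlation with S1D4 libraries was 0.94 to 0.947, against 0.929 to 0.937 for S2D4 replicates 1 to 3. Relative to the mean of replicates 1 to 3, its level was 9.65% for IL1B, 12.8% for IL1RN, 13.9% for IL24 and 23.6% for IL1A. The deficit was smaller for TSLP (41.2%), IL33 (57.5%), LIF (61.5%) and IL11 (67.0%). Values without that library stand beside the results it enters.

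**Figure D1:**
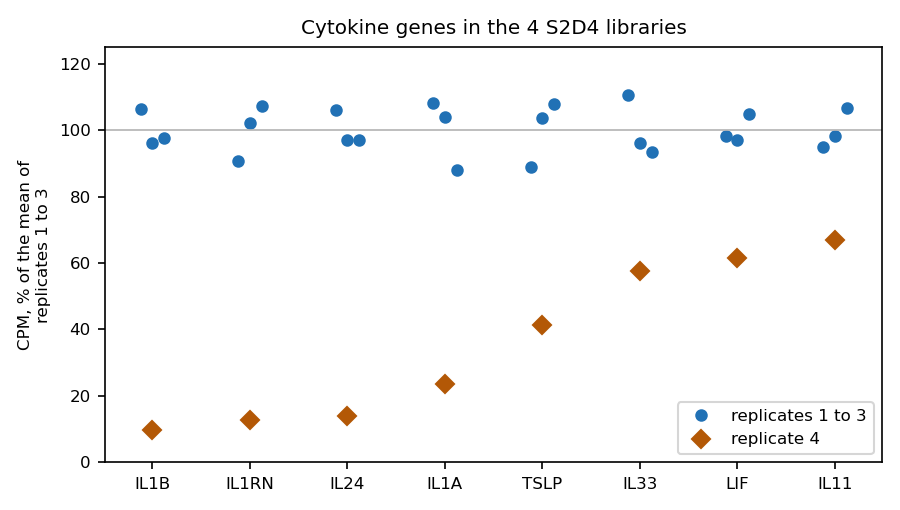
CPM of 8 cytokine genes in the 4 S2D4 libraries, each as a percentage of the mean of replicates 1 to 3 (line at 100); circles are replicates 1 to 3 and diamonds replicate 4. Replicate 4 lies below the others for all 8 genes, lowest for IL1B at 9.65% and highest for IL11 at 67.0%.

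The DNA upstream of 5 of the genes is shown because the promoters differ in the recognition strings they hold for the factors named above. In SK-N-AS, IL1A, IL1B, IL11 and IL24 all rose in stage 1, while IL6 was at the floor until S2D30. A link between the strings and the levels was not tested. The sequences run 250 bases up to the annotated start site (RefSeq, GRCh38.p14), 5′ to 3′ on the gene's strand, and capitals mark a match. IL1A has 2 annotated starts and start 2 is shown, at chr2:112784494-112784743 (minus strand). The others are IL1B at chr2:112836780-112837029 (minus strand), IL6 at chr7:22726950-22727199 (plus strand), IL11 at chr19:55370464-55370713 (minus strand) and IL24 at chr1:206897193-206897442 (plus strand).
IL1A, AP-1 string in capitals: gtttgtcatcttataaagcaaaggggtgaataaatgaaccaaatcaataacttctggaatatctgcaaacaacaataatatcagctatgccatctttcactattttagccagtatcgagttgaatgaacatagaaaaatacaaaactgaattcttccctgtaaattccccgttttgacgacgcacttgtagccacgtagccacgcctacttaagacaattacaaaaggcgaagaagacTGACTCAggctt
IL1B, STAT string in capitals: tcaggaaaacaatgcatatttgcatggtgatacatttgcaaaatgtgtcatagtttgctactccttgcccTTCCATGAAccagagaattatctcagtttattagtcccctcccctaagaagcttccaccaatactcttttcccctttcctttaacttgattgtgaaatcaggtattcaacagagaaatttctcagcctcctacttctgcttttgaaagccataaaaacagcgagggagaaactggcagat
IL6, NF-kappa-B string in capitals: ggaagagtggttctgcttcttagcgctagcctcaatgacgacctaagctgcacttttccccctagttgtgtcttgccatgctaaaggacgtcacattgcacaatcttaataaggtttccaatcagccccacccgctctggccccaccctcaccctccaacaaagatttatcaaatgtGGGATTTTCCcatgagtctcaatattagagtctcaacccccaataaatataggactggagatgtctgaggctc
IL11, AP-1 string in capitals: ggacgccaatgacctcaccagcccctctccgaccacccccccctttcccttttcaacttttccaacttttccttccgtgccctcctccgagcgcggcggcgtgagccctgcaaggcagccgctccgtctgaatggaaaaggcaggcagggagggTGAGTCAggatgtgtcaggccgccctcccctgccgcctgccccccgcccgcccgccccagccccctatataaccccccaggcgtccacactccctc
IL24, no string matched: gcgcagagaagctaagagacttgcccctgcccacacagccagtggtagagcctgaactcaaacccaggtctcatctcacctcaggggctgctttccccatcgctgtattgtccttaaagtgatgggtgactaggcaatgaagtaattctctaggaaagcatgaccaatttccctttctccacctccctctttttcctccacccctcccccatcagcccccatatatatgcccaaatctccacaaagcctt

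The search covered both strands of windows of 300 bases (250 before and 50 after a start) for TGANTCA (AP-1), TTCNNNGAA (STAT), TGACGTCA (the cyclic-AMP response element) and the NF-kappa-B consensus. Of 35116 RefSeq windows, 7.71% held the AP-1 string, 7.66% the STAT string, 1.85% the cyclic-AMP string and 11.3% the NF-kappa-B consensus. Of the 10 genes, 8 matched the promoter table, with 14 windows; LIF and CRLF2 did not match. The AP-1 string was in windows of 3 genes: IL1A, IL1RN and IL11. In IL11 its first base lay 96 bases before the start, at -96, and in IL6 the NF-kappa-B match began at -73. TSLP start 2 held 2 NF-kappa-B matches, beginning at -191 and, past the start, at 5. The STAT string was in IL1B at -180 and in 1 window each of IL33 and TSLP, and no match overlapped another. A match describes the letters only.

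**Figure D2:**
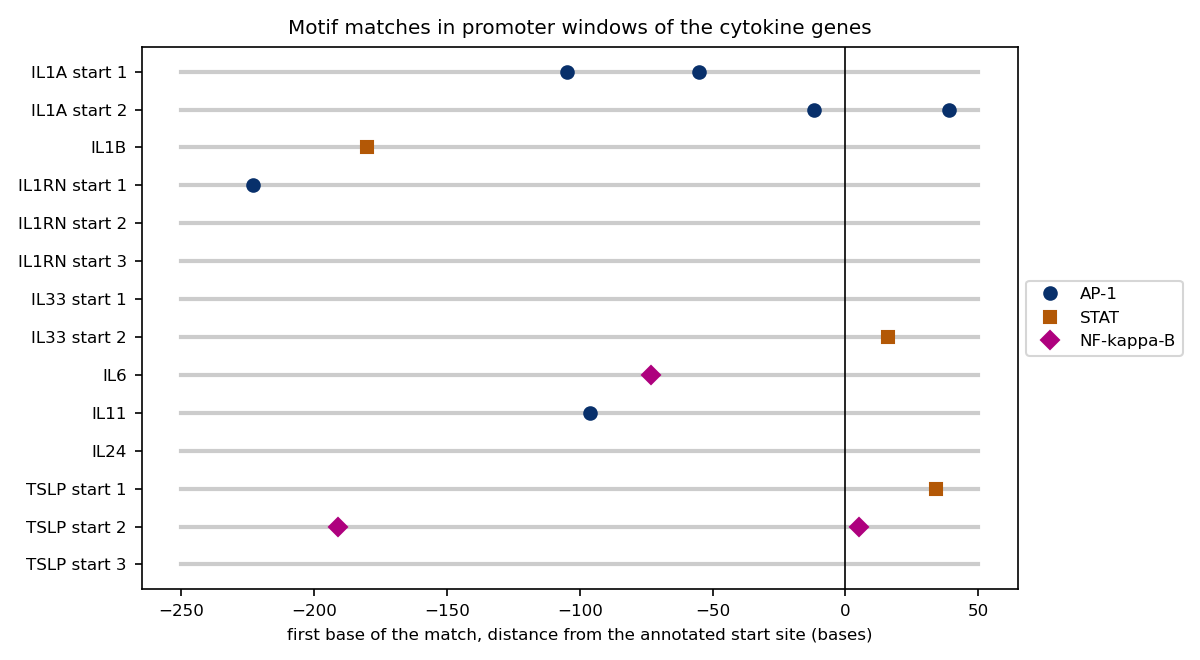
Position of each string match (first base) in the 14 promoter windows of 8 cytokine genes, in bases from the annotated start site; grey lines are the windows, circles AP-1, squares STAT and diamonds NF-kappa-B. IL24 has no match, and IL1A has 2 AP-1 matches in each of its windows, which overlap and hold the same 2 sites.

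In stage 1, most of the cytokine genes rose from very low levels. By edgeR's quasi-likelihood test with Benjamini-Hochberg adjustment over 15810 genes, 8 of 10 rose in S1D4 against untreated SK-N-AS and none fell. Of all genes tested, 17.6% rose and 22.4% fell in that comparison. TSLP and IL6 did not pass the test. The median log2 fold change was 4.26 over the 10 genes, against -0.01 over all genes, and 4.21 over the 9 with a fold when CRLF2 stood at its lower bound. When untreated and S1D4 libraries were fitted alone, 6 genes rose, because IL1A, CRLF2 and IL6 were then left out by the filter on low counts. IL6 and CRLF2 passed that filter in the full SK-N-AS model only through S2D30.

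The next steps split the genes. In S2D4 against S1D4, 5 of the 9 genes tested rose (IL1A, IL1B, IL1RN, IL11 and LIF) and none fell, while 28.3% of all genes rose and 26.8% fell. Without S2D4 replicate 4, IL33 was added and 6 rose. In S2D30 against S2D4, IL1B, IL1RN, IL33, LIF and TSLP rose and IL11 fell, while 24.4% of all genes rose and 26.9% fell. IL6 and CRLF2 were also past the threshold, making 7 of 9, but had been kept for testing only because S2D30 was high, so their values are given without a p. Without replicate 4 the counts were again 7 and 1. IL24 was left out of both tests because the selection used its stage 2 level.

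**Figure D3:**
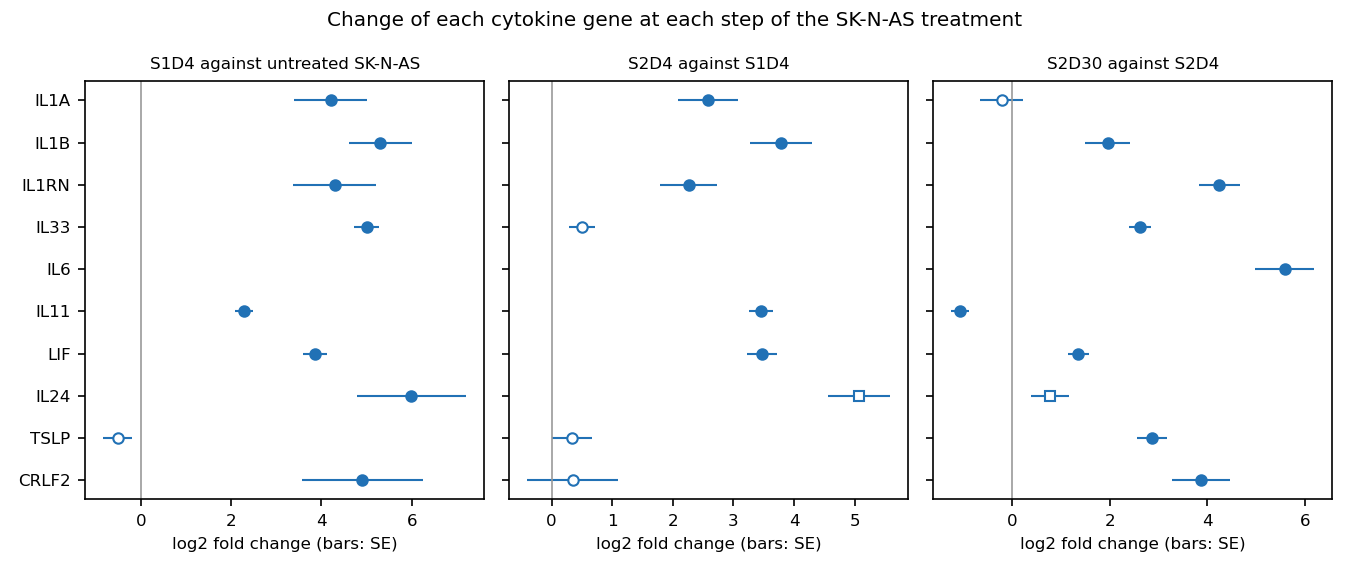
Log2 fold change of each cytokine gene at the 3 successive SK-N-AS steps, with the standard error of the edgeR fit as bars; filled circles passed the adjusted threshold of 0.05, open circles did not, and open squares (IL24) were not tested. IL6 is shown only in the last panel because both groups are at the floor before it, and in that panel IL6 and CRLF2 had passed the filter on low counts only through S2D30.

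Against untreated cells, 9 genes were past the same threshold in S2D4 (30.9% of all genes higher, 32.2% lower) and 10 in S2D30 (33.8% higher, 36.5% lower), both of which are comparisons the selection used. In GIMEN D30 against untreated GIMEN, 4 genes were higher and 1 lower among the 6 fitted, with 35.5% of 13517 genes higher and 36.0% lower. IL1A, IL1RN, IL33 and IL24 had too few GIMEN counts to be fitted. Nothing is read from these counts.

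**Figure D4:**
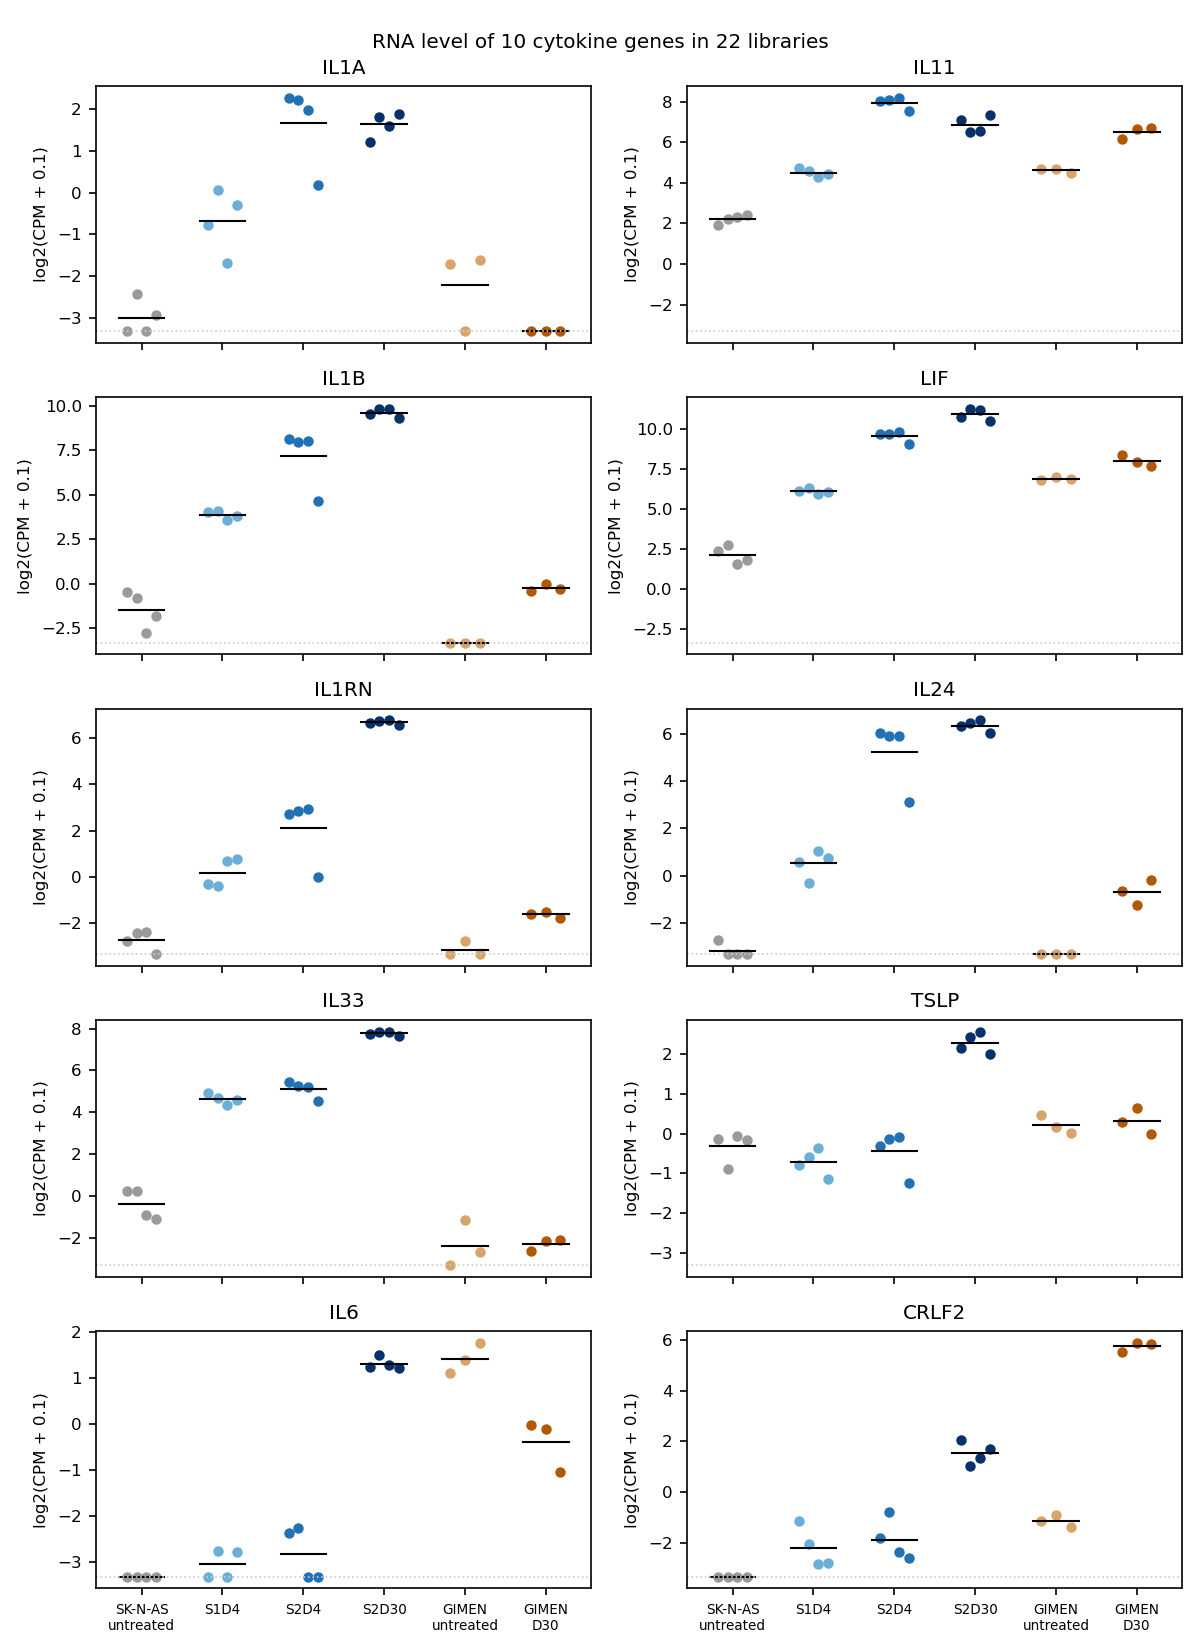
RNA level of the 10 genes in all 22 libraries as log2(CPM + 0.1), 1 point per library and 1 panel per gene; black lines are means of the plotted values and the dotted line is 0 CPM. IL1B, IL1RN, IL33, LIF, IL24 and TSLP are highest in S2D30, IL1A and IL11 in S2D4, IL6 in untreated GIMEN and S2D30, and CRLF2 in GIMEN D30.

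IL1B, the secreted IL-1 beta that needs cleavage to become active, rose at each SK-N-AS step. Untreated libraries had 0.618, 0.481, 0.0477 and 0.183 CPM, and S1D4 libraries had 16.2, 17.1, 11.8 and 13.8 CPM. Levels were 278.7, 251.6, 255.6 and 25.3 CPM in S2D4, and 752.5, 897, 881.5 and 625.4 CPM in S2D30. No library of one group overlapped the next. The log2 fold change was 5.30 (SE 0.70, adjusted p = 2.08e-05, edgeR) in S1D4 against untreated cells, and 5.94 without untreated replicate 1. It was 3.78 (SE 0.51, adjusted p = 1.07e-05) in S2D4 against S1D4 and 4.15 without S2D4 replicate 4. In S2D30 against S2D4 it was 1.96 (SE 0.46, adjusted p = 0.00201, edgeR), or 1.59 without that library. GIMEN had no IL1B count before treatment and 11, 14 and 11 counts after it, at least 4.75-fold higher.

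IL1A, which is active without cleavage and stays largely in the cell, rose in stage 1 and in S2D4 but stayed under 5 CPM. Untreated libraries had 0, 2, 0 and 1 counts, and S1D4 libraries had 12, 20, 5 and 16. The ratio was 22.4 (95% exact binomial interval 7.25 to 112, counting error only). The edgeR log2 fold change was 4.21 (SE 0.81, adjusted p = 0.000621), and 5.20 without untreated replicate 2. S2D4 libraries had 4.75, 4.56, 3.86 and 1.04 CPM, which is 2.58 (SE 0.49) above S1D4 on the log2 scale (adjusted p = 0.000314, edgeR), and 2.90 without replicate 4. In S2D30 the level was 2.24 to 3.61 CPM and overlapped S2D4, with a log2 difference of -0.21 (SE 0.44, adjusted p = 0.715, edgeR). In GIMEN, IL1A had 4, 0 and 4 counts before treatment and 0 in each library after it.

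IL1RN, the receptor antagonist, rose at each SK-N-AS step and had its highest level in S2D30. Untreated libraries had 2, 2, 2 and 0 counts. S1D4 libraries had 0.723, 0.659, 1.52 and 1.60 CPM and S2D4 libraries 6.43, 7.22, 7.58 and 0.907 CPM, so replicate 4 fell within the S1D4 range. All S2D30 libraries were far higher, at 101.8, 106.8, 108.8 and 94.2 CPM. The log2 fold change was 4.30 (SE 0.92, adjusted p = 0.00147, edgeR) in S1D4 against untreated cells and 2.26 (SE 0.47, adjusted p = 0.000736) in S2D4 against S1D4, or 2.64 without S2D4 replicate 4. In S2D30 against S2D4 it was 4.24 (SE 0.42, adjusted p = 3.98e-07, edgeR), or 3.86 without that library. As a description chosen after the values were seen, IL1B had 27.9 to 43.4 counts for each IL1RN count in S2D4 libraries and 6.64 to 8.40 in S2D30 libraries. In S1D4 libraries 1 to 4 the values were 22.4, 25.9, 7.78 and 8.61, so a low ratio was not limited to S2D30.

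IL33, a nuclear cytokine released from damaged cells and the ligand of IL1RL1, rose in stage 1 and again from S2D4 to S2D30. Untreated libraries had 1.09, 1.09, 0.43 and 0.366 CPM and S1D4 libraries 30.3, 25.1, 20.2 and 23.8 CPM. S2D4 libraries, at 43.7, 38.05, 37 and 22.8 CPM, overlapped S1D4 through replicate 4 alone. S2D30 libraries had 210.7, 230.9, 229.5 and 201.5 CPM, above all others. The log2 fold change was 5.00 (SE 0.28, adjusted p = 3.67e-09, edgeR) in S1D4 against untreated cells. From S1D4 to S2D4 it was 0.50 (SE 0.21, adjusted p = 0.054, edgeR), and 0.66 (adjusted p = 0.00271) without S2D4 replicate 4. In S2D30 against S2D4 it was 2.62 (SE 0.22, adjusted p = 5.73e-08, edgeR), and 2.46 without that library. GIMEN libraries had at most 7 counts in either group.

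LIF, the leukemia inhibitory factor that signals through LIFR and IL6ST, reached the highest level of the 10 genes. Untreated SK-N-AS libraries had 5.24, 6.78, 2.91 and 3.48 CPM, and S1D4 libraries 68.5, 78.5, 61.3 and 65.6 CPM. S2D4 libraries had 831, 822, 887 and 521 CPM, and S2D30 libraries 1717, 2403, 2335 and 1405 CPM. The 4 groups did not overlap. The log2 fold change was 3.86 (SE 0.26, adjusted p = 2.4e-08, edgeR) in stage 1, 3.47 (SE 0.24, adjusted p = 9.19e-09) from S1D4 to S2D4 and 1.36 (SE 0.22, adjusted p = 9.02e-05) from S2D4 to S2D30. Without S2D4 replicate 4 the later values were 3.62 and 1.21. S2D30 lay 8.70 (SE 0.31) above untreated cells on the log2 scale. In GIMEN, levels were 113.8, 128.9 and 114.9 CPM untreated and 326.4, 243.8 and 206.6 CPM in D30, a log2 difference of 1.09 (SE 0.13).

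IL11, an IL-6 family cytokine known from stromal and fibrotic tissue, peaked at S2D4. Untreated libraries had 3.73, 4.50, 4.92 and 5.22 CPM, and S1D4 libraries 26.2, 23.7, 19.3 and 21.6 CPM. S2D4 libraries had 260.9, 270.1, 293.1 and 184 CPM, all above the 137.1, 89.7, 93.7 and 162.9 CPM of S2D30. The log2 fold change was 2.29 (SE 0.20, adjusted p = 4.93e-07, edgeR), then 3.46 (SE 0.20, adjusted p = 1.04e-09) from S1D4 to S2D4, or 3.59 without S2D4 replicate 4. In S2D30 against S2D4 it was -1.06 (SE 0.18, adjusted p = 0.000133, edgeR), and -1.19 without that library. In GIMEN it was 25.8, 25.9 and 22.6 CPM untreated and 72.0, 99.8 and 104.9 CPM in D30, a log2 difference of 1.87 (SE 0.13).

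IL6, the family's namesake, was the last to appear in SK-N-AS. It had no count in the 4 untreated libraries, 0, 1, 0 and 1 in S1D4, and 2, 2, 0 and 0 in S2D4. S2D30 libraries had 51, 53, 51 and 51 counts, or 2.24, 2.71, 2.31 and 2.22 CPM. The ratio of S2D30 to S2D4 was 54.2 (95% exact binomial interval 20.8 to 200.8), and the fitted log2 fold change was 5.58 (SE 0.60). It was 5.06 without S2D4 replicate 4 and 6.18 without S2D4 replicate 2. GIMEN went the other way, from 2.06, 2.50 and 3.28 CPM untreated to 0.881, 0.825 and 0.385 CPM in D30, a log2 difference of -1.91 (SE 0.35). In the GENCODE v29 annotation, 20.7% of IL6 exon bases lie opposite exons of AC073072.1 or STEAP1B. The strand used in counting is not given in the sources used here, so reads of these genes could not be told apart. The same holds for 6.73% of LIF and 5.37% of TSLP exon bases.

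IL24, an IL-10 family cytokine known for effects on tumour cell survival and keratinocytes, was named by the selection for its stage 2 level. Untreated libraries had 2, 0, 0 and 0 counts. Levels were 65.3, 59.6, 59.7 and 8.56 CPM in S2D4 and 79.4, 88.0, 94.96 and 66.3 CPM in S2D30. S2D30 lay above each S2D4 library, by 0.77 (SE 0.39) on the log2 scale with replicate 4 and 0.41 without it. The ratio to untreated cells was 2565 (95% exact binomial interval 710 to 21190) in S2D4 and 4787 (1325 to 39540) in S2D30, each resting on 2 untreated counts. The stage 1 level was not used in the selection: S1D4 libraries had 34, 15, 47 and 36 counts, a ratio of 83.6 (22.7 to 698) and an edgeR log2 fold change of 5.99 (SE 1.21, adjusted p = 0.000881). Without untreated replicate 1, which held both untreated counts, it was 8.06. In GIMEN, IL24 had no count before treatment and 9, 5 and 12 counts after it, at least 3.43-fold higher.

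TSLP, a cytokine of epithelial and stromal cells, changed only in the last SK-N-AS step among those tested. Untreated libraries had 0.816, 0.437, 0.859 and 0.794 CPM, and S1D4 and S2D4 libraries lay between 0.324 and 0.847 CPM. S2D30 libraries had 4.34, 5.27, 5.84 and 3.95 CPM, with no overlap. The log2 fold change was -0.51 (SE 0.32, adjusted p = 0.225, edgeR) in stage 1 and 0.33 (SE 0.33, adjusted p = 0.426) from S1D4 to S2D4, or 0.58 without S2D4 replicate 4. It was 2.87 (SE 0.31, adjusted p = 9.73e-07, edgeR) in S2D30 against S2D4, and 2.61 without that library. GIMEN libraries had 0.904 to 1.29 CPM untreated and 0.899 to 1.46 CPM in D30, which overlapped.

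CRLF2, the ligand-binding chain of the TSLP receptor, was named by the selection for GIMEN. Untreated GIMEN libraries had 0.361, 0.442 and 0.283 CPM (7, 9 and 5 counts), and D30 libraries had 46.2, 58.4 and 56.7 CPM (786, 920 and 883 counts). The log2 difference was 7.15 (SE 0.18). In SK-N-AS it had no untreated count, 9, 3, 1 and 1 counts in S1D4, 4, 9, 2 and 2 in S2D4 and 93, 38, 54 and 72 in S2D30. S1D4 was at least 1.34-fold above untreated cells, and the edgeR log2 fold change of 4.91 (SE 1.34, adjusted p = 0.01) became 3.95 without S1D4 replicate 1. S2D30 libraries, at 4.08, 1.95, 2.45 and 3.13 CPM, lay above each S2D4 library by 3.87 (SE 0.60) on the log2 scale. The difference was 3.51 without S2D4 replicate 4 and 4.65 without S2D4 replicate 2. CRLF2 lies in the pseudoautosomal region with copies on X and Y in GENCODE v29. How reads that fit both copies were counted is not given in the sources used here, so its level is uncertain.

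The untreated lines differed in 6 of the 10 genes, of which 2 were higher and 4 lower in SK-N-AS. Of 16246 genes tested in the same edgeR fit, 38.6% were higher and 35.3% lower in SK-N-AS. LIF was lower in SK-N-AS, at 4.60 ± 1.76 CPM (SD, n = 4) against 119 ± 8.42 CPM (n = 3), a log2 difference of -4.70 (SE 0.25, adjusted p = 2.82e-11, edgeR). IL11 was lower by -2.46 (SE 0.21, adjusted p = 1.24e-08, edgeR). IL6, absent from the untreated SK-N-AS counts, was at least 23.8-fold lower (adjusted p = 6.86e-09, edgeR), and CRLF2 at least 3.29-fold lower (adjusted p = 5.95e-05). IL1B was at least 2.12-fold higher in SK-N-AS (adjusted p = 0.00251, edgeR). CRLF2 and IL1B were in this model only because of the 30-day libraries, and were not tested when the untreated groups were fitted alone. IL33 was higher by 2.40 on the log2 scale (SE 0.62, adjusted p = 0.00234, edgeR), a value that ranged from 1.80 without GIMEN replicate 1 to 4.54 without GIMEN replicate 2. TSLP differed by -0.57 (SE 0.29, adjusted p = 0.0922, edgeR) and IL1A by -2.23 (SE 0.99, adjusted p = 0.0545). IL1A was in this model only through S2D30, and its value rests on 0, 2, 0 and 1 counts in SK-N-AS against 4, 0 and 4 in GIMEN.

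Levels of different genes were compared only per kilobase of GENCODE v29 exon length. On that scale LIF led in S1D4, S2D4, S2D30 and both GIMEN groups, at 17.2, 193, 495, 30.0 and 65.3 CPM per kb, and IL11 led in untreated SK-N-AS at 1.72 CPM per kb against 1.16 for LIF. In S2D30, LIF was followed by IL1B at 255, IL33 at 67.0, IL11 at 45.3, IL24 at 41.5 and IL1RN at 31.6 CPM per kb. TSLP (1.13), IL6 (1.14), IL1A (1.44) and CRLF2 (1.44) were lowest there. In GIMEN D30 the order was LIF, IL11 at 34.5 and CRLF2 at 26.7 CPM per kb, and the next was IL6 at 0.337.

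Receptor chains of the same cytokines moved less evenly. Of 16 IL-1 family ligands and receptors, 7 were fitted in SK-N-AS. In stage 1, 3 rose and none fell (17.6% and 22.4% of all genes). These were SIGIRR and 2 genes that passed the filter only through S2D30, IL36B and IL36RN. In S1D4 the last 2 were at only 0.17 ± 0.15 and 0.076 ± 0.052 CPM (SD, n = 4), against 0 CPM in untreated cells. From S1D4 to S2D4, 4 rose and none fell (28.3% and 26.8% of all genes), and from S2D4 to S2D30 4 rose and 2 fell (24.4% and 26.9%), the same counts as without S2D4 replicate 4. The medians of the fitted genes were 0.51, 0.69 and 1.27 (0.61 and 0.95 at the later steps without that library), against -0.01, 0.02 and -0.02 over all genes. Of the 4 genes higher at the last step, IL36B and IL36RN passed the filter only through S2D30. IL1RAP, the shared accessory chain, rose from 3.44 ± 0.30 CPM in S1D4 to 14.9 ± 3.46 CPM in S2D4 (SD, n = 4; log2 fold change 2.10, adjusted p = 1.15e-07, edgeR), or by 2.26 without replicate 4. IL1RL1, the IL-33 receptor, rose by 2.08 at that step (adjusted p = 0.000904, edgeR) and by 2.73 in S2D30 against S2D4 (adjusted p = 2.66e-05), where it reached 26.0 ± 5.18 CPM. Without replicate 4 these values were 2.44 and 2.37. IL36B, a ligand, and IL36RN, its antagonist, were at 17.1 ± 1.61 and 11.2 ± 1.65 CPM in S2D30, against 0.14 ± 0.17 and 0.084 ± 0.069 CPM in S2D4. In GIMEN, IL1R1 was at 69.0 ± 1.95 CPM untreated, against 3.63 ± 0.34 CPM in untreated SK-N-AS (adjusted p = 7.41e-15, edgeR).

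Genes that process and transmit IL-1 passed the test about as often as genes in general. Of 21 such genes, 18 were fitted in SK-N-AS: 3 rose and 3 fell in stage 1 (17.6% and 22.4% of all genes). From S1D4 to S2D4, 5 rose and 4 fell (28.3% and 26.8% of all genes), or 6 and 4 without S2D4 replicate 4. From S2D4 to S2D30, 5 rose and 3 fell (24.4% and 26.9%), or 6 and 5 without that library. AIM2, a DNA sensor of inflammasomes, rose from 0.237 ± 0.18 to 3.57 ± 1.05 CPM in stage 1 (SD, n = 4; adjusted p = 2.65e-05, edgeR). IRAK2, a kinase of the receptor complex, rose by 2.68 in stage 1 (adjusted p = 2.9e-05, edgeR) and by 2.71 in GIMEN D30 (adjusted p = 2.98e-08). CASP1, the protease that cleaves IL-1 beta, was left out of the SK-N-AS fit by the filter on low counts. It is named after its values were seen, at 0.028 ± 0.041 CPM in untreated cells and 0.537 ± 0.22 CPM in S2D30.

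Of 16 other IL-6 family genes, 12 were fitted in SK-N-AS. In stage 1, 6 rose and 1 fell, against 17.6% and 22.4% of all genes. From S1D4 to S2D4, 7 rose and 3 fell (6 and 3 without S2D4 replicate 4), against 28.3% and 26.8%. From S2D4 to S2D30, 1 rose and 4 fell (3 and 4 without that library), against 24.4% and 26.9%. The medians were 0.78, 1.21 and -0.11, the later values being 0.84 and -0.07 without replicate 4. IL6R, the IL-6 receptor, rose from 4.49 ± 1.45 CPM in S1D4 to 71.4 ± 3.46 CPM in S2D4 (SD, n = 4; log2 fold change 3.98, adjusted p = 7.97e-10, edgeR), or 4.01 without replicate 4. LIFR rose from 83.7 ± 15.2 CPM in S1D4 to 201 ± 24.6 CPM in S2D4 (log2 fold change 1.26, adjusted p = 1.18e-05, edgeR), or by 1.34 without replicate 4. It then fell by 1.85 on the log2 scale to 56.0 ± 2.92 CPM in S2D30 (adjusted p = 2.43e-07, edgeR), or by 1.94 without S2D4 replicate 4. LIF itself rose at both steps. IL11RA, the IL-11 receptor, fell in stage 1 from 55.2 ± 4.85 to 26.2 ± 3.71 CPM (adjusted p = 1.16e-06, edgeR), as IL11 rose. IL6ST, named as the shared chain, stayed between 111 and 143 CPM in the means of the 4 SK-N-AS groups and passed no test between successive groups (adjusted p = 0.451, 0.951 and 0.408, edgeR). In GIMEN D30, 9 of 12 fitted genes rose and 1 fell, against 35.5% and 36.0% of all genes, with IL6R at 49.2 ± 3.03 CPM against 13.5 ± 1.45 CPM (SD, n = 3; adjusted p = 1.18e-08, edgeR).

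**Figure D5:**
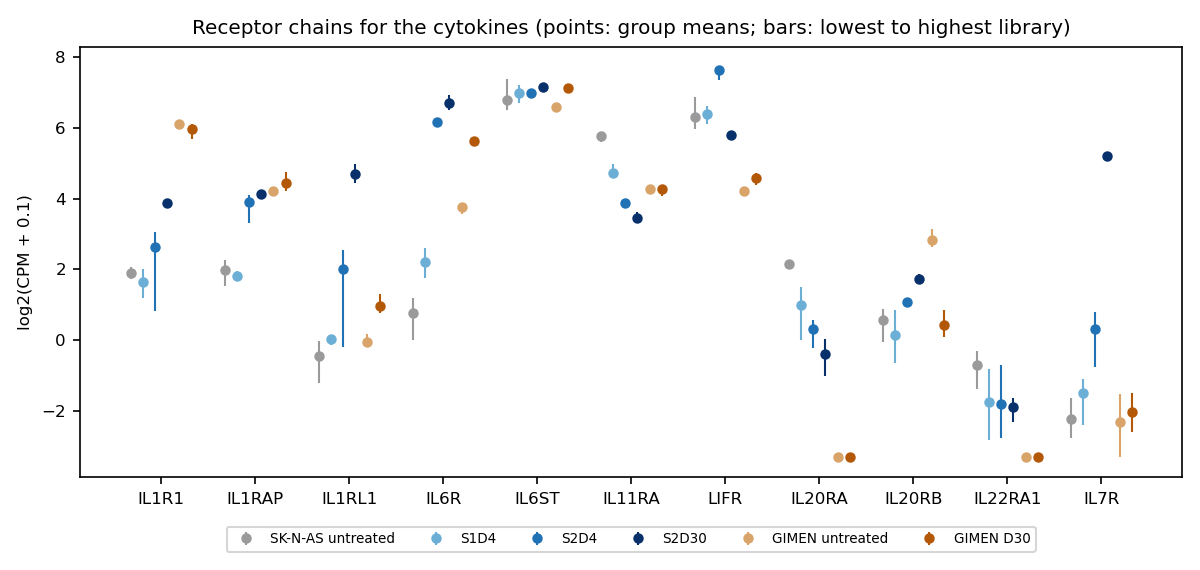
Level of 11 receptor chains of these cytokines as log2(CPM + 0.1) in the 6 groups; points are group means and bars run from the lowest to the highest library (4 per SK-N-AS group, 3 per GIMEN group). IL6R and IL7R are highest in S2D30, LIFR is highest in S2D4, and IL20RA and IL22RA1 have no counts in GIMEN.

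For IL24, the chains IL20RA and IL20RB form a receptor. IL20RA fell in stage 1 from 4.34 ± 0.28 to 1.87 ± 0.78 CPM (SD, n = 4; adjusted p = 0.00327, edgeR) and was at 0.664 ± 0.22 CPM in S2D30. IL20RB rose from 1.00 ± 0.49 CPM in S1D4 to 2.02 ± 0.11 CPM in S2D4 (adjusted p = 0.00864, edgeR, and 0.0116 without replicate 4). Of 13 IL-10 family genes, 7 were fitted in SK-N-AS, with 1 higher and 1 lower in stage 1 (17.6% and 22.4% of all genes). The counts were 2 and 2 from S1D4 to S2D4 (2 and 3 without S2D4 replicate 4; 28.3% and 26.8% of all genes), and 2 and 1 from S2D4 to S2D30 with or without that library (24.4% and 26.9%). IL10RA passed the filter only through S2D30. It was the gene higher in stage 1, 1 of those lower from S1D4 to S2D4 and 1 of the 2 higher at the last step. In GIMEN, IL20RA had no counts and IL20RB fell from 7.08 ± 1.45 to 1.24 ± 0.41 CPM (SD, n = 3; adjusted p = 4.24e-06, edgeR).

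For TSLP, the second receptor chain IL7R was at 1.15 ± 0.48 CPM in S2D4 and 36.8 ± 1.79 CPM in S2D30 (SD, n = 4), a log2 difference of 5.03, or 4.74 without S2D4 replicate 4. It is given without a p because it would not have passed the filter on low counts without S2D30. In GIMEN, where CRLF2 was high in D30, IL7R was at 0.145 ± 0.098 CPM and was not fitted. Of 13 related genes of the IL-7 and IL-4 pathways, 10 were fitted in SK-N-AS. In stage 1, 5 rose and none fell, while 17.6% of all genes rose and 22.4% fell. From S1D4 to S2D4, 6 rose, IL7R included, and 1 fell (6 and 2 without S2D4 replicate 4), with 28.3% and 26.8% over all genes. From S2D4 to S2D30, 6 were higher, IL7R included, and 2 lower with or without that library (24.4% and 26.9% over all genes). IL13RA2, a decoy receptor for IL-13, rose by 1.60 on the log2 scale at the last step to 433 ± 72.8 CPM (adjusted p = 1.48e-06, edgeR), or by 1.48 without S2D4 replicate 4.

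Of 19 JAK-STAT genes, 8 rose and 3 fell in stage 1, when 17.6% of all genes rose and 22.4% fell. From S1D4 to S2D4, 6 rose and 5 fell (6 and 6 without S2D4 replicate 4), near the 28.3% and 26.8% of all genes. From S2D4 to S2D30, 7 rose and 3 fell (7 and 1 without that library), beside 24.4% and 26.9% of all genes. SOCS3, a feedback inhibitor induced by STAT3, rose in stage 1 from 13.7 ± 8.79 to 54.8 ± 4.70 CPM (SD, n = 4; adjusted p = 0.000266, edgeR). It then fell to 20.0 ± 4.35 CPM in S2D4 (adjusted p = 0.0016, edgeR, and 0.00109 without replicate 4) while LIF rose further. Its further value of 10.7 ± 1.95 CPM in S2D30 passed the test with S2D4 replicate 4 (adjusted p = 0.0355, edgeR) and not without it (adjusted p = 0.0833). In GIMEN D30, SOCS3 fell from 60.8 ± 2.38 to 31.4 ± 1.92 CPM (SD, n = 3; adjusted p = 1.99e-07, edgeR).

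Across the 22 libraries, the genes whose log2 CPM correlated most with IL24 were GALNT9 (Pearson r = 0.987), FAM83G (0.979), IL1B (0.972), SETD7 (0.971) and CCDC71L (0.963). Those nearest to CRLF2 were AMN1 (0.974), LMBRD1 (0.973), SLC6A15 (0.963), UNC50 (0.959) and JKAMP (0.954). The libraries share groups, and S2D4 replicate 4 is among them, so these values describe likeness over 6 groups.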

How the data were processed

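The authors deposited 1 table of raw counts, listed by gene symbol, for 22 libraries, as whole numbers that differ in total between libraries. Per the labels' protocols, DNase-treated total RNA was sequenced in paired-end mode by a company. The aligner, counter, genome build and strand setting are not given in the sources used here. Groups, doses and days came from the labels. Counts were tested in R 4.3.3 with edgeR 4.0.16 (limma 3.58.1): genes kept by filterByExpr (minimum count 10, minimum total 15), TMM scaling, and the quasi-likelihood F-test without a replicate block. One model covered 16 SK-N-AS libraries, one 6 GIMEN libraries, and one the 14 untreated and 30-day libraries for the comparison of the untreated lines. P-values were Benjamini-Hochberg adjusted over all genes tested (threshold 0.05), and the scripts were tested on simulated data. Levels across groups used 1 TMM scaling of all libraries. Standard errors come from the log2 fold change and the F statistic. Against a group with no counts, a fold is a lower bound with 3 counts per library as the denominator. Intervals of count ratios are exact (Clopper-Pearson, 95%) and, as reads carried no molecular identifiers, cover counting error only. The lowest chi-square per degree of freedom over 30 replicate pairs was 2.73, so no library repeated another. Some libraries lay in pairs. In S1D4 the value was 6.7 for replicates 1 and 2 and 3.16 for 3 and 4, but 24.14 to 27.43 across these pairs. In S2D30 it was 4.04 for replicates 1 and 4 and 4.23 for 2 and 3, but 11.76 to 25.58 across. The labels do not explain the pairs, and the tests treated the 4 libraries of a group as separate.

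The genes described and the pathway and marker lists were chosen with earlier results of these data known. From each pathway list, up to 3 called genes per direction with the largest log2 fold change and at least 1 CPM in a group could be named. Likeness lists hold the 5 genes of highest Pearson correlation (prior count 2, 16610 genes). Receptor chains of the cytokines were named in addition. Alternatives were DESeq2 size factors, upper-quartile factors, DESeq2 1.42.0, a filter of 10 counts on the mean, none at all, a replicate block, a minimum log2 change of 1 in size, the compared groups alone, and leaving out each library. Leaving S2D4 replicate 4 out of the pathway counts was added after the data were seen.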

Additional observations from a re-analysis of the deposited data

Results flagged for a closer look

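In S2D4, replicate 4 had 25.3 CPM of IL1B, against 252 to 279 CPM in the other 3 libraries, and 8.56 CPM of IL24, against 59.6 to 65.3 CPM. In untreated SK-N-AS, replicate 2 had 0.437 CPM of TSLP, against 0.794 to 0.859 CPM in the others, on 10 counts. Each gap to the nearest library exceeded Dixon's 95% critical value for 4 samples. The check covered 33 sets of gene and group, and chance flags about 1 in 20 groups.

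IL6 moved in opposite directions over 30 days. It was higher in each S2D30 library than in each untreated SK-N-AS library, with a fitted log2 difference of 8.84 that depends on the prior count because the untreated group had no counts (at least 21.5-fold). It was lower in each GIMEN D30 library than in each untreated GIMEN library, with a log2 difference of -1.91. The difference between the lines was not tested, and doses and media differed.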

How the results depend on the processing

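Where the 10 genes could be fitted, no called value reversed its direction or lost its call. Values that were not called could change sign. CRLF2 did so in S2D4 against S1D4, with a log2 fold change of 0.35, and -0.43 without S2D4 replicate 2. Over the alternatives, 488 tested values stayed on their side of the threshold and 8 crossed into a call. Of these, 4 concerned IL33 in S2D4 against S1D4 (adjusted p = 0.0452 with no filter, 0.0329 with the replicate block, 0.0366 without S1D4 replicate 1 and 0.00271 without S2D4 replicate 4, edgeR), with a highest adjusted p of 0.165 over its alternatives. The other 4 concerned IL1A between the untreated lines (adjusted p = 0.00926 to 0.047, edgeR or DESeq2), with a highest of 0.195. IL1A had at most 4 counts in those libraries and was in the main model only through S2D30. Of the values given without a test, 355 stayed within the spread between replicates and 12 moved further. A minimum log2 change of 1 in size left 953 genes higher and 989 lower in S1D4 against untreated cells, 1406 and 2019 in S2D4 against S1D4, 1603 and 1506 in S2D30 against S2D4, and 3845 and 3008 between the untreated lines. With the compared groups alone, the filter left out IL1A and CRLF2, so that 6 genes and not 8 rose in S1D4. Between the untreated lines it left out IL1B and CRLF2, so that 1 gene and not 2 was higher and 3 and not 4 were lower in SK-N-AS. Leaving out 1 library at a time gave 8 genes higher in S1D4, 5 to 6 in S2D4 against S1D4 and 7 in S2D30 against S2D4. The 7, and the 488 values above, include IL6 and CRLF2 in S2D30 against S2D4. Both were kept for testing only because S2D30 was high, so nothing is read from their calls at that step.

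The labels give no pairing by replicate number, and the values cannot exclude one for S1D4 and untreated cells. There, correlations of same-numbered deviations were 0.044 to 0.293, and 3 of 4 libraries correlated best with their own number. For the later steps the correlations were -0.028 to 0.076. With the replicate block, 2880 genes were higher and 3571 lower in S1D4, and 8 of the 10 genes were higher, as without it. Genes with few counts, such as IL6 and CRLF2 before S2D30, limit what depth can show.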
